A study of Mus musculus with 69 samples.

Results

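A set of 10 genes of secreted proteins was followed here across neuron class, genotype and cortical area in mice that lack Fmr1, the gene whose loss causes fragile X syndrome: Spp1, Plau, Serpinf1, Nell1, Nell2, Ccn4, Abi3bp, Crispld1, Fgf10 and Metrnl. They are 10 of the 17634 genes of the table. They were picked because their genotype, class or area differences in these same libraries drew attention, so those differences are given as descriptions, with a fold change and its standard error (SE) but no p-value for a single gene. The measurement was RiboTag RNA-seq, in which Cre recombination puts an HA tag on the ribosomal protein Rpl22 and tagged ribosomes are pulled down with their bound mRNA. All mice carried the Rpl22HA/HA allele and were 70 to 100 days old. One line carried PV-Cre, which acts in parvalbumin interneurons, and the other Camk2a-Cre, which acts in excitatory neurons. Each line was WT or Fmr1 KO, and the primary visual cortex (V1) and primary somatosensory cortex (S1) were taken separately. The 4 PV groups, WT and KO in each area, held 10 libraries each. The Camk2a groups held 8 WT and 6 KO libraries of V1 and 8 WT and 7 KO libraries of S1. Within a group the libraries came from separate animals by their codes. Across areas 32 of 37 codes had a library from each, so V1 and S1 libraries are mostly paired. Class is defined by the Cre driver alone, the pull-down also carries RNA of other cells, and input RNA was not analysed here. In such bulk samples fewer cells of a type and less RNA per cell cannot be told apart.

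Secreted factors of neurons act on the extracellular matrix, on neighbouring cells and on the cell that makes them. Spp1 encodes osteopontin, a phosphoprotein that binds integrins and CD44. Ccn4 (also called WISP1) encodes a matricellular protein of the CCN family and Abi3bp a matrix-associated protein. Plau encodes urokinase, the protease that turns plasminogen into plasmin, and Serpinf1 encodes PEDF, a serpin that does not inhibit proteases and has neurotrophic and anti-angiogenic activity. Nell1 and Nell2 encode thrombospondin-like glycoproteins with EGF repeats, and NELL2 is a ligand of the axon guidance receptor Robo3. Fgf10 is a fibroblast growth factor that acts mainly through Fgfr2, Metrnl encodes the meteorin-like protein, and Crispld1 belongs to the CAP superfamily of secreted cysteine-rich proteins.

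Promoter windows from RefSeq on GRCm38.p6 (mm10) were found for 5 of the 10 genes. Like the rest of the 10, these had lower Fmr1 KO means in the PV class. One window is shown for each of 4 of them, for Spp1 the first of its 2, and that of Nell1 is not shown because it lies wholly in annotated exons. Each covers up to 250 bases before a RefSeq transcription start, without any base inside an annotated exon, and is written 5′ to 3′ on the gene's strand. Capitals mark matches to 6 searched motifs, on either strand: the TATA box TATAAA, the CCAAT box CCAAT, the GC box GGGCGG, the E-box CACGTG, the AP-1 site TGACTCA and the CRE TGACGTCA. The windows lie at chr5:104434861-104435110 (plus strand) for Spp1, chr11:75422702-75422873 (minus strand) for Serpinf1, chr11:121702177-121702410 (plus strand) for Metrnl and chr13:118714449-118714698 (plus strand) for Fgf10. Those of Metrnl and Fgf10 lie inside the annotated span of the gene, so their starts are internal ones.
Spp1: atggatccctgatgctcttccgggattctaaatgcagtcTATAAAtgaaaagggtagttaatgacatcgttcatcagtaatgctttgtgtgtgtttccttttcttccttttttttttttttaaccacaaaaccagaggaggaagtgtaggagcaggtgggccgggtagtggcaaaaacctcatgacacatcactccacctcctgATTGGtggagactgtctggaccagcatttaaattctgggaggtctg
Serpinf1: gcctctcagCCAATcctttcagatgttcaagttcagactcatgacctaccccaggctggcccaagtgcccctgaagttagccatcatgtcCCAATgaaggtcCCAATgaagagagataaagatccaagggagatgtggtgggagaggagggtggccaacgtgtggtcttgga
Metrnl: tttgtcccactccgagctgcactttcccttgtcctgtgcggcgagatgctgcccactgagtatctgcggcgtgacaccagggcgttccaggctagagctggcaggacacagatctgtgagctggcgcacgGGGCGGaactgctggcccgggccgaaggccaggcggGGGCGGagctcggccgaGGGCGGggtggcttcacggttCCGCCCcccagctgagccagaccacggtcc
Fgf10: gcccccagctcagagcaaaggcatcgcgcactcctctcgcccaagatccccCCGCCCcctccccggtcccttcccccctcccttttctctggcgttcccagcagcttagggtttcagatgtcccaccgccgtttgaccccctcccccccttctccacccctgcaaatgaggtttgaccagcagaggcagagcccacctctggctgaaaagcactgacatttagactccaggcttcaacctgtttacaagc

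No motif was shared by all 4 windows. Spp1 held a TATA box 211 bases before the start and a CCAAT box on the other strand at 46 bases. Serpinf1 held CCAAT boxes at 241, 160 and 148 bases. Metrnl held GC boxes at 120, 84 and 67 bases and 1 on the other strand at 46 bases, and Fgf10 held 1 GC box, on the other strand, at 199 bases. Motifs were searched in the whole 250 bases before each start, of which 172 are printed for Serpinf1 and 234 for Metrnl. Among 32851 promoter windows of 250 bases, 12.4% held the TATA box, 33.9% the CCAAT box, 32.7% the GC box, 6.02% the E-box, 4.46% the AP-1 site and 1.55% the CRE. A match is a description of letters, and matches of different motifs may overlap.

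All 10 genes are annotated as protein coding in mm10. Spp1 lies at chr5:104435118-104441050, Plau at chr14:20836660-20843385, Nell1 at chr7:49974864-50866608, Ccn4 at chr15:66891320-66923201, Abi3bp at chr16:56477878-56690135, Crispld1 at chr1:17727045-17766344, Fgf10 at chr13:118669791-118792115 and Metrnl at chr11:121701544-121716306, all on the plus strand. Serpinf1, at chr11:75409769-75422701, and Nell2, at chr15:95075230-95528559, lie on the minus strand. Exons of Spp1 overlap those of Gm42793 on the same strand, and exons of Crispld1 and Fgf10 overlap Gm16070 and Gm16263 on the opposite strand, so the counts of these 3 genes are uncertain to that extent.

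Libraries held 27.64 to 49.11 M estimated counts (median 38.77 M), and levels are given in CPM, counts scaled to library size with TMM factors. Fmr1 stood at no more than 14.74 CPM in any KO library and at no less than 35.93 CPM in any WT library. Summed PV markers were 9167 to 12435 CPM in PV libraries and summed excitatory markers 9177 to 12630 CPM in Camk2a libraries, so each class carried its markers. PV libraries still held 887 to 1751 CPM of excitatory markers. Among Camk2a libraries the 6 of animals C3 (KO), C18 and C19 (both WT) held 737 to 1875 CPM of PV markers against 257 to 465 CPM in the other 23. Sex labels differed from Y-linked reads in 6 libraries. In PV animals P9, P22 and P24 and Camk2a animal C24 the V1 and S1 libraries stood the other way round from the rest for Spp1 or Nell1, and the S1 library of C24 was the only one labelled Batch 2. Whether the area labels of these 4 animals were exchanged was not tested, and this touches every value for a single area and every V1 minus S1 difference. Comparisons on animals with both areas summed do not depend on the area labels.

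Libraries of the 2 classes differed in these factors. Spp1 and Serpinf1 were higher in PV libraries, while Nell1, Nell2, Abi3bp, Metrnl, Fgf10 and Crispld1 were higher in Camk2a libraries. Markers of other cells differed as well. Group medians of summed microglia and macrophage markers were 22.9 to 34.2 CPM in PV and 8.48 to 9.25 CPM in Camk2a. Those of fibroblasts and meninges were 12.0 to 23.4 and 4.43 to 6.32 CPM. Astrocyte markers were higher in Camk2a, 918 to 1052 CPM against 610 to 772 CPM in PV. The part of other cells in the class differences was not tested. On the scale of CPM per kb of exon, which allows levels of different genes to be compared, Nell2 led both classes with 29.2 in PV (percentile 91.0 of 17614 genes) and 219 in Camk2a (percentile 99.2). In PV libraries Spp1 followed at 4.68, then Plau at 2.94, Metrnl at 2.03, Nell1 at 1.80 and Serpinf1 at 1.71, and Abi3bp was lowest at 0.109 (percentile 10.8). In Camk2a libraries Nell1 followed at 9.17 and Metrnl at 5.03, while Spp1 at 0.221 and Serpinf1 at 0.0774 (percentile 10.3) were last.

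**Figure D1:**
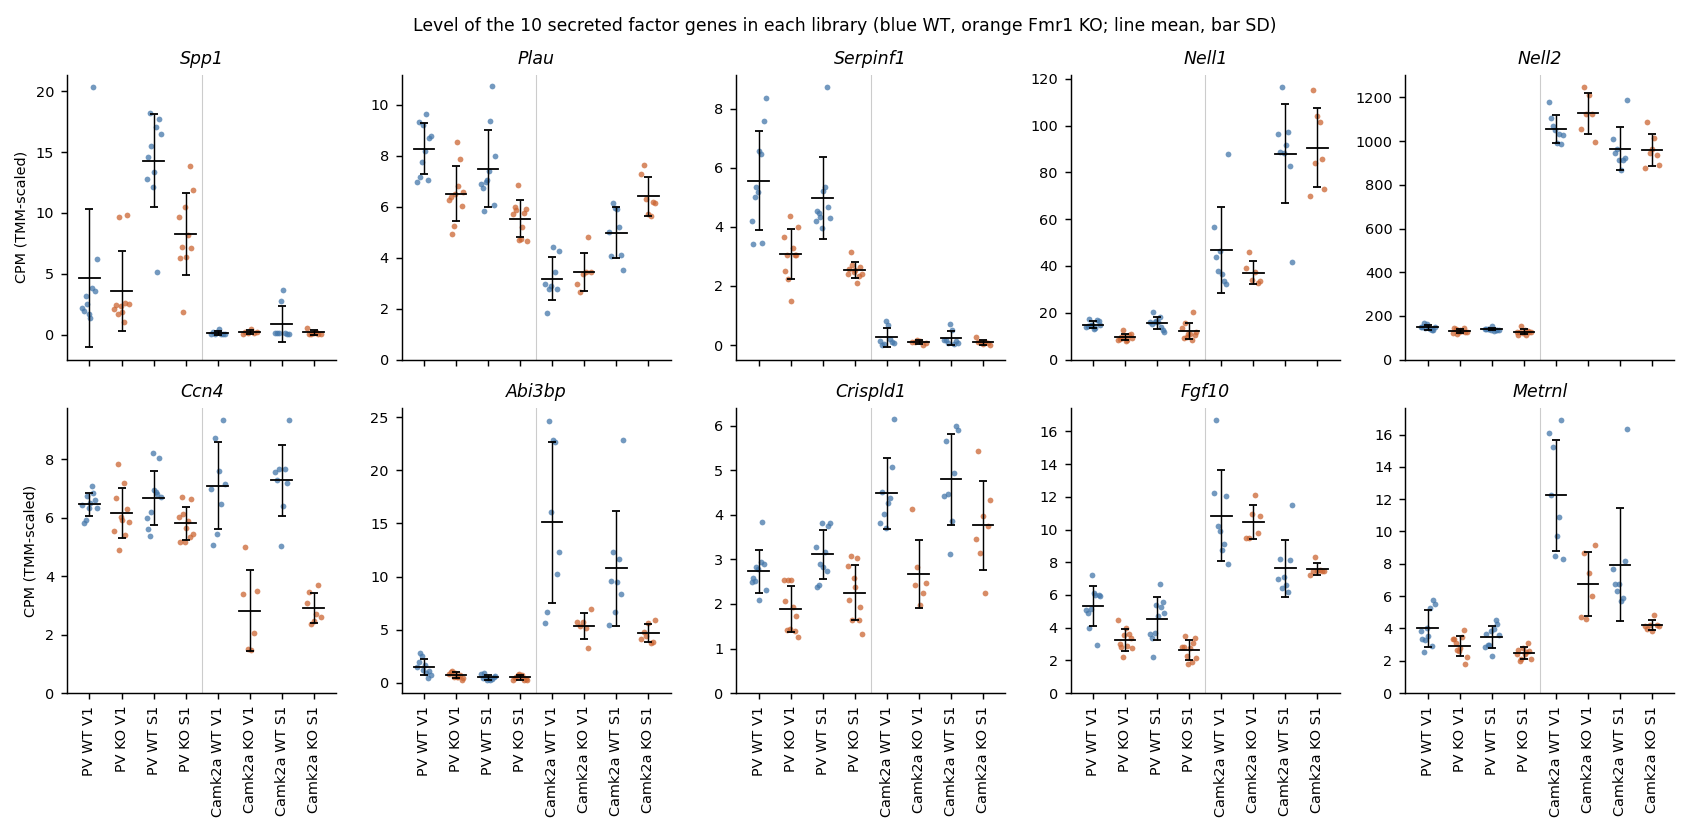
CPM (TMM-scaled, linear axis) of each of the 10 genes in every library, with 8 groups on the horizontal axis, WT in blue and Fmr1 KO in orange, the mean as a line and 1 SD as a bar. Serpinf1 reaches at most 0.804 CPM in any Camk2a library and at least 1.49 CPM in every PV library, and Nell2 is at least 869.7 CPM in every Camk2a library and at most 169.6 CPM in every PV library.

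In WT V1, Spp1 ran from 1.37 CPM over a median of 2.86 to 20.3 CPM in PV libraries and from 0.0247 over 0.0626 to 0.482 CPM in Camk2a libraries. In WT S1 the PV range was 5.14 to 18.2 CPM with a median of 15.0, and the Camk2a range 0.0381 to 3.69 CPM with a median of 0.111. The PV and Camk2a ranges did not meet in either area. Serpinf1 ran from 3.41 over 5.26 to 8.36 CPM in PV WT V1 and from 0 over 0.115 to 0.804 CPM in Camk2a WT V1. In WT V1 the PV minus Camk2a difference on the log2 scale was 4.55 (SE 0.51) for Serpinf1 and 4.53 (SE 0.64) for Spp1. In Camk2a libraries the larger values of both genes went with PV markers. In the 6 libraries of C3, C18 and C19 Serpinf1 had a median of 0.612 CPM (0.120 to 0.804) against 0.0886 (0 to 0.223) in the other 23, and Spp1 0.518 CPM (0.0721 to 3.69) against 0.108 (0.0247 to 0.463). The part of PV cell RNA in these values was not tested.

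Nell2 ran from 134 over 148 to 169.6 CPM in PV WT V1 and from 988 over 1041 to 1179 CPM in Camk2a WT V1, far apart, a difference of -2.80 (SE 0.05) on the log2 scale. Nell1 ran from 12.9 over 14.8 to 17.3 CPM and from 32.2 over 40.9 to 87.8 CPM in the same groups, a difference of -1.61 (SE 0.17), and in WT S1 it was -2.48 (SE 0.15). Abi3bp ran from 0.495 over 1.34 to 2.84 CPM in PV WT V1 and from 5.61 over 14.2 to 24.6 CPM in Camk2a WT V1, again without overlap, with a difference of -3.26 (SE 0.35). In WT S1 Abi3bp differed by -4.32 (SE 0.29). Metrnl was at 4.00 ± 1.12 CPM (SD, n = 10) in PV WT V1 against 12.2 ± 3.45 CPM (SD, n = 8) in Camk2a WT V1, and Fgf10 at 5.33 ± 1.20 against 10.9 ± 2.80 CPM. Crispld1 had the smallest of these class differences, -0.72 (SE 0.13) in WT V1.

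Plau and Ccn4 did not keep 1 class difference across groups. Plau was higher in PV libraries by 1.44 (SE 0.15) in WT V1, 0.54 (SE 0.13) in WT S1 and 0.97 (SE 0.14) in KO V1, and in KO S1 the estimate was -0.20 (SE 0.09), not called. It was called, lower in PV, in 4 of 7 alternative settings (RLE scaling, DESeq2, no filter on low counts, and without P9, P22 and P24), with -0.26 to -0.18 over the 7. Ccn4 was near equal in the classes in WT, with -0.11 (SE 0.11) in V1 and -0.13 (SE 0.11) in S1, and higher in PV in KO, with 1.12 (SE 0.20) in V1 and 1.01 (SE 0.10) in S1. Called (adjusted p under 0.05 over all genes, edgeR) were 9 of 10 genes in WT V1, 9 in WT S1, 10 in KO V1 and 9 in KO S1. Most genes differed between the classes: percent called over all genes was 77.3%, 77.2%, 74.3% and 77.7%, so these counts are near the background. Without C3, C18 and C19 the Crispld1 call in KO V1 ended.

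**Figure D2:**
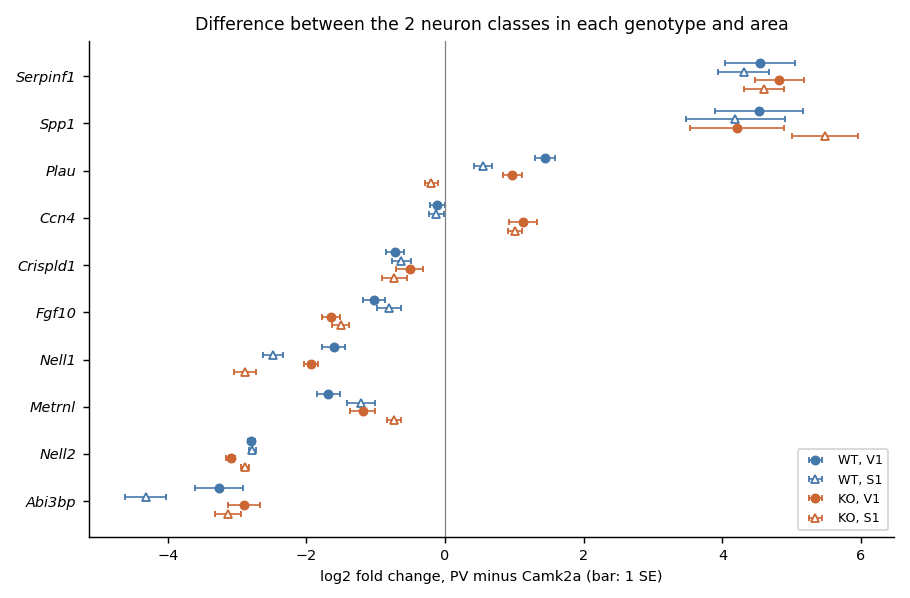
log2 fold change, PV minus Camk2a, of each gene (points, with bars of 1 SE) in WT and Fmr1 KO and in V1 and S1. Serpinf1 and Spp1 lie above 4 and Nell2 and Abi3bp below -2.7 in all 4 comparisons, while Ccn4 moves from -0.11 in WT V1 to 1.12 in KO V1.

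The levels in all 8 groups follow as mean ± SD over libraries, always in the order V1 of WT, V1 of KO, S1 of WT, S1 of KO. For the matrix genes, Spp1 had 4.68 ± 5.67, 3.60 ± 3.26, 14.3 ± 3.84 and 8.30 ± 3.37 CPM in PV and 0.140 ± 0.161, 0.199 ± 0.138, 0.877 ± 1.47 and 0.176 ± 0.178 CPM in Camk2a. Its SD exceeded or nearly equalled the mean in both V1 groups of PV, where P22, P9 and P24 lay far above the other libraries. Ccn4 had 6.46 ± 0.391, 6.16 ± 0.871, 6.68 ± 0.934 and 5.82 ± 0.564 CPM in PV and 7.10 ± 1.48, 2.82 ± 1.39, 7.28 ± 1.22 and 2.91 ± 0.513 CPM in Camk2a. Its means were between 5.82 and 7.28 CPM in 6 of the groups, with the 2 Camk2a KO groups below them. Abi3bp had 1.49 ± 0.766, 0.705 ± 0.276, 0.516 ± 0.223 and 0.522 ± 0.206 CPM in PV and 15.1 ± 7.58, 5.36 ± 1.21, 10.8 ± 5.40 and 4.66 ± 0.859 CPM in Camk2a. In Camk2a its SD was larger in both WT groups than in the KO groups.

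For the protease and serpin genes, Plau had 8.28 ± 0.999, 6.51 ± 1.07, 7.50 ± 1.51 and 5.53 ± 0.711 CPM in PV and 3.17 ± 0.845, 3.43 ± 0.730, 4.98 ± 1.00 and 6.41 ± 0.762 CPM in Camk2a. Its order of areas was opposite in the classes, with V1 means above S1 means in PV and below them in Camk2a. Serpinf1 had 5.56 ± 1.67, 3.07 ± 0.851, 4.97 ± 1.39 and 2.54 ± 0.279 CPM in PV and 0.260 ± 0.311, 0.103 ± 0.0616, 0.239 ± 0.246 and 0.0982 ± 0.0893 CPM in Camk2a. In Camk2a, 3 of the groups held 1 library each with 0 counts. For the NELL genes, Nell1 had 15.0 ± 1.45, 9.65 ± 1.46, 15.6 ± 2.49 and 12.1 ± 3.51 CPM in PV and 46.9 ± 18.3, 37.1 ± 5.00, 87.9 ± 21.2 and 90.5 ± 16.9 CPM in Camk2a, and Nell2 had 148 ± 11.2, 131 ± 9.97, 139 ± 5.48 and 128 ± 11.3 CPM in PV and 1055 ± 63.5, 1127 ± 94.7, 966 ± 98.9 and 959 ± 71.7 CPM in Camk2a. Nell1 was higher in S1 and Nell2 in V1 by mean in Camk2a of both genotypes.

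For the growth factor genes, Fgf10 had 5.33 ± 1.20, 3.27 ± 0.670, 4.55 ± 1.31 and 2.64 ± 0.591 CPM in PV and 10.9 ± 2.80, 10.5 ± 1.05, 7.64 ± 1.74 and 7.57 ± 0.363 CPM in Camk2a, and Metrnl had 4.00 ± 1.12, 2.92 ± 0.638, 3.49 ± 0.692 and 2.48 ± 0.354 CPM in PV and 12.2 ± 3.45, 6.76 ± 1.96, 7.94 ± 3.51 and 4.19 ± 0.317 CPM in Camk2a. Both had higher means in V1 than in S1 in every class and genotype. Crispld1 had 2.73 ± 0.477, 1.88 ± 0.513, 3.11 ± 0.551 and 2.25 ± 0.621 CPM in PV and 4.49 ± 0.799, 2.68 ± 0.764, 4.80 ± 1.02 and 3.76 ± 0.992 CPM in Camk2a, and its S1 means were above its V1 means throughout.

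Ordering the 8 groups of each gene by mean gave 70 pairs of neighbours, of which 5 had library ranges that did not meet and 9 had bands of mean ± SD that did not meet. The 5 were single steps. Serpinf1 stepped from PV KO S1 (2.54 ± 0.28 CPM) down to Camk2a WT V1 (0.260 ± 0.311), and Nell1 from Camk2a KO V1 (37.1 ± 5.00) to PV WT S1 (15.6 ± 2.49). Nell2 stepped from Camk2a KO S1 (959 ± 71.7) to PV WT V1 (148 ± 11.2), and Abi3bp from Camk2a KO S1 (4.66 ± 0.86) to PV WT V1 (1.49 ± 0.77). These 4 steps divide the classes. The step of Ccn4 lay elsewhere, between PV KO S1 (5.82 ± 0.56) and Camk2a KO S1 (2.91 ± 0.51). By mean the 2 Camk2a KO groups stood below the other 6. By library, Camk2a KO V1 reached 4.99 CPM and PV KO V1 went down to 4.88 CPM, so these ranges met. No neighbours of Spp1, Plau or Crispld1 were apart by either measure. The share of such steps over all genes was not counted, so the 5 steps have no background here. The genes were picked for genotype, class or area differences, and 74.3% to 77.7% of all genes were called between the classes.

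In the PV class all 10 genes had a lower mean in Fmr1 KO animals than in WT animals when the V1 and S1 libraries of each animal were summed (10 WT and 9 KO animals), and 8 of them were called lower and 0 higher. Over all 17154 genes tested, 1.36% were called and 1.05% were called lower. These differences helped choose the genes, so the count is a description. The same holds for overlap between genotypes, here and below, and how many of all genes do not overlap was not counted. The median log2 difference of the 10 genes was -0.495 against 0.006 for all genes. The KO mean was lower for 10 of 10 genes in females and for 10 of 10 in males, by sex label. The median and this split come from libraries that helped choose the genes, so they are descriptions too.

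Of the protease and serpin genes, Serpinf1 stood out. Per animal it ran from 3.98 over 5.35 to 6.50 CPM in WT and from 1.98 over 2.71 to 3.42 CPM in KO. Every KO animal was below every WT animal, and the log2 difference was -0.92 (SE 0.11). Plau ran from 6.48 over 7.90 to 9.51 CPM in WT and from 5.58 over 6.02 to 6.75 CPM in KO, with 7 of 9 KO animals below the lowest WT animal and a difference of -0.36 (SE 0.07). The KO values of Plau were also closer together, with an SD of 0.402 against 0.929 CPM.

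Of the growth factor genes, Fgf10 ran from 3.07 over 4.89 to 6.32 CPM in WT and from 2.23 over 2.89 to 3.79 CPM in KO, and 5 of 9 KO animals lay below all WT animals. Its difference was -0.73 (SE 0.13). Metrnl ran from 2.77 over 3.63 to 5.03 CPM in WT and from 2.16 over 2.69 to 3.48 CPM in KO, again with 5 of 9 KO animals below the WT range, and differed by -0.45 (SE 0.11). The groups overlapped for both genes.

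Of the NELL genes, Nell1 ran from 13.4 over 15.1 to 18.8 CPM in WT and from 8.28 over 10.4 to 15.8 CPM in KO, a difference of -0.50 (SE 0.08). Only 1 KO animal, P23, lay within the WT range, and the other 8 lay below it. Nell2 ran from 135 over 144 to 154 CPM in WT and from 122 over 128 to 138 CPM in KO, with 7 of 9 KO animals below the WT range. Its difference was the smallest of the called genes, -0.14 (SE 0.03).

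Of the matrix genes, Spp1 ran from 6.81 over 9.86 to 12.2 CPM in WT and from 3.97 over 5.89 to 8.64 CPM in KO, with 6 of 9 KO animals below the WT range and a difference of -0.62 (SE 0.15). Abi3bp, at 9 to 107 counts per library in this class, ran from 0.444 over 0.935 to 1.83 CPM in WT and from 0.335 over 0.587 to 0.882 CPM in KO. Its estimate of -0.67 (SE 0.21) was not called, nor was that of Ccn4, -0.16 (SE 0.06), whose animals ran from 5.64 over 6.62 to 7.30 CPM and from 5.38 over 5.76 to 6.56 CPM. Crispld1 ran from 2.45 over 2.95 to 3.31 CPM in WT and from 1.30 over 2.07 to 2.66 CPM in KO, with 6 of 9 KO animals below the WT range and a difference of -0.49 (SE 0.12).

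**Figure D3:**
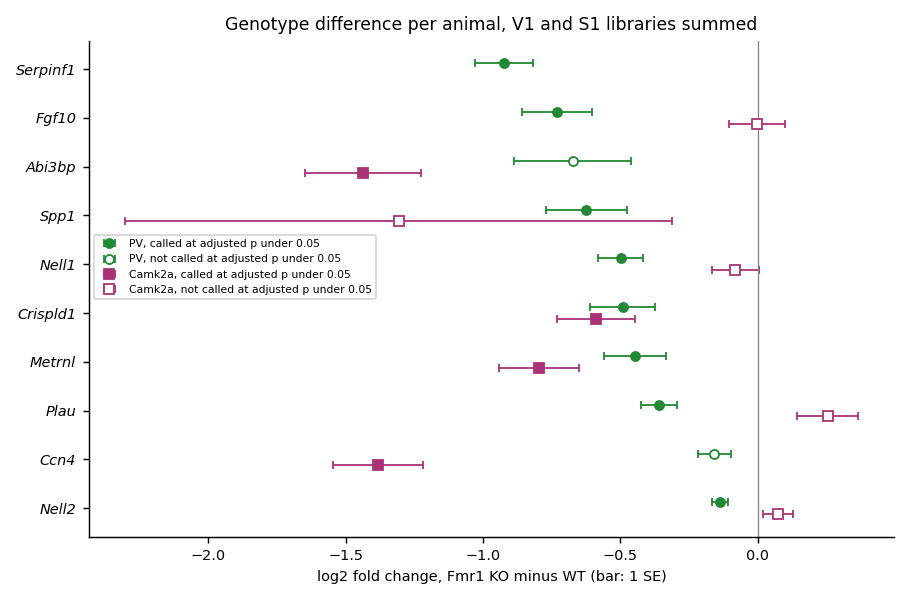
log2 fold change, Fmr1 KO minus WT, of each gene with the V1 and S1 libraries of an animal summed (bars, 1 SE), for PV (circles) and Camk2a (squares), filled where called at adjusted p under 0.05. In PV all 10 points lie below 0, from -0.92 to -0.14, and in Camk2a the filled points are Abi3bp, Ccn4, Metrnl and Crispld1, from -1.44 to -0.59.

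Without P9, P22 and P24 the count in PV was 3 (Serpinf1, Nell1 and Fgf10), and the calls of Spp1, Plau, Nell2, Crispld1 and Metrnl ended. Their estimates there were -0.65, -0.33, -0.15, -0.47 and -0.40, in that order. With the animal as a block it was 7, since the call of Spp1 ended. Leaving out single animals in turn, the count was between 4 and 8, with the lowest count without P10, which also ended the call of Nell2. The call of Metrnl ended in 16 of 19 such fits, that of Spp1 in 13 and that of Crispld1 in 12, while those of Serpinf1, Nell1, Fgf10 and Plau held in all 19. Markers of fibroblasts and meninges had higher estimates in KO for 11 of 11 tested (median 0.374 on the log2 scale), with 1 called, Col1a1. Their summed level was 8.76 to 28.8 CPM over the WT and 11.1 to 39.7 CPM over the KO libraries, with none of the 12 at 0 in every library, and their part in the result was not tested. Markers of layers 2/3 and 4 had lower estimates in KO for 6 of 9 (median -0.079, 1 called lower, Whrn), and oligodendrocyte markers for 8 of 11 (median -0.072, 1 called lower, Ugt8a).

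In the Camk2a class Abi3bp and Ccn4 had the largest genotype differences (7 WT and 6 KO animals, V1 and S1 summed). Of 9 genes tested, 4 were called lower in KO and 0 higher: Abi3bp, Ccn4, Metrnl and Crispld1. Over all 16743 genes tested 4.11% were called and 2.05% were called lower. Serpinf1 did not pass the filter on low counts. The median log2 difference of the 9 was -0.589 against 0.004 for all genes. By sex label the KO mean was lower for 7 of 10 genes in females and 6 of 10 in males. Here too the counts, the median and the split describe libraries that helped choose the genes.

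Ccn4 ran from 5.24 over 7.08 to 8.22 CPM per animal in WT and from 1.94 over 2.76 to 4.33 CPM in KO. No KO animal reached the WT range, and the difference was -1.38 (SE 0.16). Abi3bp ran from 8.21 over 15.96 to 18.8 CPM in WT and from 3.52 over 5.10 to 6.49 CPM in KO. Its groups did not overlap either, with a difference of -1.44 (SE 0.21), and the WT animals were widely spread (SD 4.22 against 0.957 CPM). Among single libraries the genotypes did overlap in both areas: WT animals C1 (5.61 CPM in V1) and C2 (5.42 CPM in S1), which had 1 library each and are not in the summed comparison, lay within the KO range of 3.24 to 6.96 CPM in V1 and 3.75 to 5.93 CPM in S1. Metrnl ran from 7.57 over 9.34 to 12.1 CPM in WT and from 4.39 over 5.48 to 6.84 CPM in KO, also without overlap between these animals, and differed by -0.80 (SE 0.14), while single libraries overlapped in V1. Crispld1 ran from 3.40 over 4.66 to 6.05 CPM in WT and from 2.25 over 3.16 to 3.79 CPM in KO, with 4 of 6 KO animals below the WT range and a difference of -0.59 (SE 0.14).

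The other 5 genes were not called. Plau, lower in PV, had higher values here, from 3.01 over 4.34 to 5.19 CPM in WT and from 4.58 over 4.81 to 5.24 CPM in KO, and an estimate of 0.25 (SE 0.11). Fgf10 ran from 7.64 over 8.43 to 12.2 CPM in WT and from 8.32 over 8.96 to 9.74 CPM in KO, with an estimate of 0.00 (SE 0.10). Nell1 averaged 67.3 ± 4.61 CPM over 7 WT animals and 63.7 ± 9.90 CPM over 6 KO animals (± SD), and Nell2 at 995 ± 54.0 and 1046 ± 84.8 CPM, with estimates of -0.08 (SE 0.09) and 0.07 (SE 0.06). Serpinf1, untested, was at 0.264 ± 0.291 and 0.104 ± 0.060 CPM. Spp1 had an estimate of -1.31 (SE 1.00) at 0.0363 to 2.14 CPM in WT and 0.103 to 0.318 CPM in KO. Without C3, C18 and C19 that estimate was 1.12, opposite in sign.

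Leaving out single animals, the count in Camk2a was 3 or 4: the call of Crispld1 ended in 8 of 13 such fits, and those of Ccn4, Abi3bp and Metrnl held in all 13. PV markers had lower estimates in KO for 12 of 13 (median -1.075 on the log2 scale, 0 called). Their summed level was 294 to 1875 CPM over the WT and 257 to 1418 CPM over the KO libraries. Its group medians were near equal, 337 CPM in WT and 313 CPM in KO for V1, and 432 and 445 CPM for S1. Of the animals rich in these markers, C18 and C19 were WT and C3 was KO. Of 11 oligodendrocyte markers 9 were lower (median -0.175, 1 called, Mbp), and 2 of 12 astrocyte markers were called lower, Aldoc and Aldh1l1 (median of the 12 0.044). Of 13 endothelial and mural markers 1 was called lower, Tagln (median -0.048), and of 10 of fibroblasts and meninges 1, Fmod (median 0.243). The part of these markers in the result was not tested. Without C3, C18 and C19, the animals rich in PV markers, the same 4 genes were called.

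**Figure D4:**
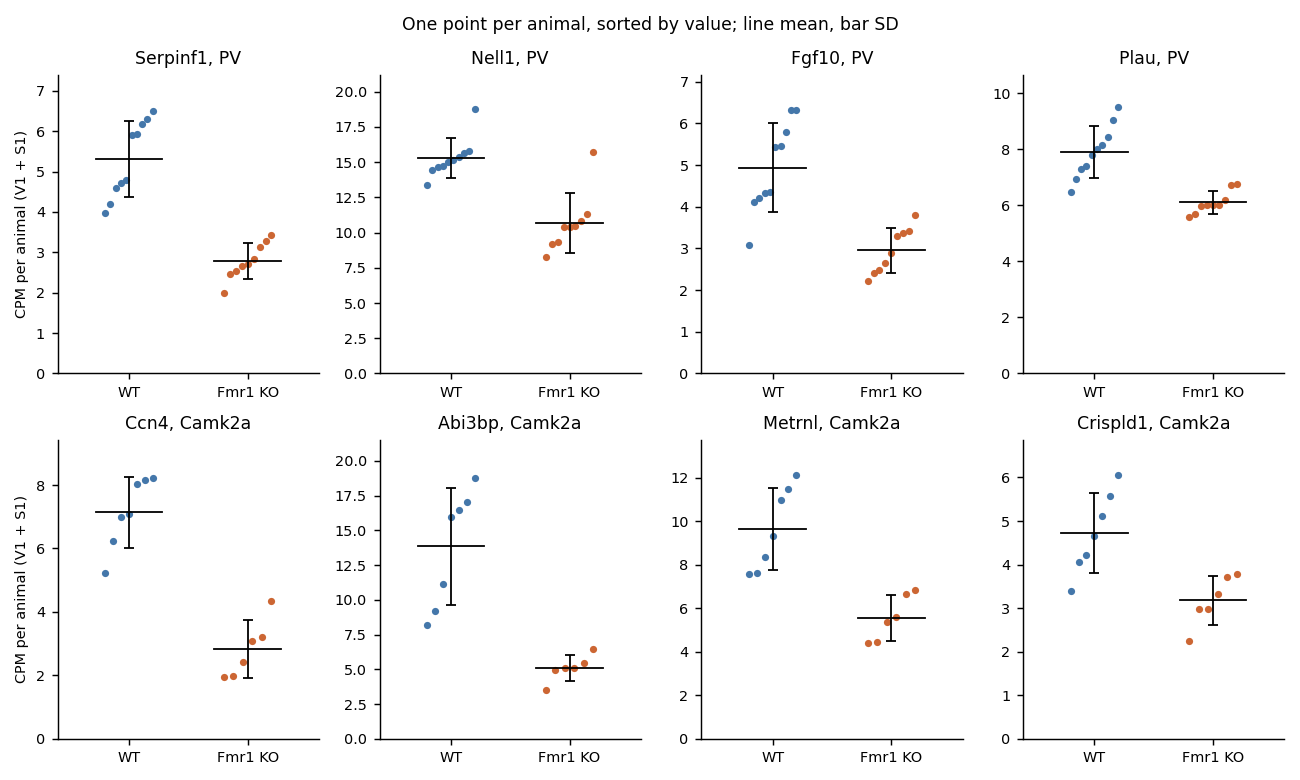
CPM per animal (V1 and S1 summed, linear axis from 0) of 4 genes in PV (10 WT and 9 KO animals) and 4 genes in Camk2a (7 WT and 6 KO animals), with points sorted by value, the mean as a line and 1 SD as a bar. KO animals lie wholly below WT animals for Serpinf1 in PV and for Ccn4, Abi3bp and Metrnl in Camk2a. The genes were picked for such differences, and the share of all genes that separate in this way was not counted.

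The difference of the genotype effect between the classes (PV minus Camk2a, an interaction term in edgeR) was called for 3 of 10 genes, where 0.832% of all genes were called. It was 1.20 (SE 0.16) for Ccn4, called lower in Camk2a KO and not called in PV KO. It was -0.72 (SE 0.18) for Fgf10 and -0.59 (SE 0.12) for Plau, called lower in PV KO and not called in Camk2a KO. For Metrnl and Crispld1, called lower in both classes, the estimates were 0.36 (SE 0.18) and 0.10 (SE 0.19), and for Abi3bp 0.73 (SE 0.31), none called. The call of Fgf10 ended without C3, C18 and C19 and also without P9, P22 and P24. The comparisons by class share their libraries with those by genotype.

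Within single areas, whose libraries are those of the summed comparisons, fewer genes were called. In PV V1 they were Nell1, -0.63 (SE 0.08), and Fgf10, -0.69 (SE 0.14), 2 of 10 where 0.191% of all genes were called. In PV S1 they were Serpinf1, -0.95 (SE 0.12), Fgf10, -0.75 (SE 0.16), and Plau, -0.42 (SE 0.10), 3 of 10 against 0.77%. Nell1 in PV V1 (12.9 to 17.3 CPM in WT, 7.98 to 12.7 CPM in KO) and Serpinf1 in PV S1 (3.95 to 8.72 CPM in WT, 2.09 to 3.16 CPM in KO) had no overlap between the genotypes. In Camk2a V1 the called genes were Ccn4, -1.43 (SE 0.25), and Crispld1, -0.77 (SE 0.17), 2 of 8 against 1.4%. In Camk2a S1 they were Ccn4, -1.38 (SE 0.12), Abi3bp, -1.19 (SE 0.26), and Metrnl, -0.87 (SE 0.20), 3 of 8 against 4.09%. Ccn4 in both areas, and Metrnl in S1 with 5.68 to 16.4 CPM in WT and 3.82 to 4.84 CPM in KO, did not overlap.

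Several of these calls ended when libraries were left out, while the estimates kept their sign. The Fgf10 call in PV V1 ended in 15 of 20 fits without 1 library, with estimates of -0.77 to -0.64 over the 20. The Plau call in PV S1 ended in 16 of 20, with -0.46 to -0.35. Without P9, P22 and P24 together the Fgf10 call in PV S1 ended, and Spp1 was called there. The call of Ccn4 in Camk2a V1 (-1.60 to -1.29) ended without C7 or C16 and without C3, C18 and C19 together. That of Crispld1 there (-0.91 to -0.69) ended in 9 of 14 such fits. In Camk2a S1 Abi3bp (-1.29 to -0.96) was not called without C5, C7 or C16, and Metrnl (-0.93 to -0.67) not without C5 or C6. Spp1 in PV V1 had an estimate of -0.15 (SE 0.52) that ran from -0.57 to 0.33 as single libraries were left out. No gene of the table had a called difference of the genotype effect between areas in either class with edgeR (0% of 16733 and of 16360 genes). At an unadjusted p under 0.05 there were 312 genes in PV, 1 of the 10 among them (Abi3bp), and 608 in Camk2a with 0 of the 8 tested. DESeq2 called 0 genes in PV and 1 in Camk2a, none of the 10. Abi3bp in PV was at 1.49 ± 0.77 CPM in WT V1, 0.705 ± 0.276 in KO V1, 0.516 ± 0.223 in WT S1 and 0.522 ± 0.206 in KO S1 (SD, n = 10 each).

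Between the areas, Spp1 and Abi3bp were the genes called in PV WT libraries. Spp1 was lower in V1, -1.81 (SE 0.41), and Abi3bp higher, 1.47 (SE 0.27). These were 2 of 10 where 20.6% of all genes were called, a share near the background. Abi3bp was higher in the V1 library of 10 of 10 WT animals and of 5 of 9 KO animals. Spp1 was higher in the S1 library of 9 of 10 WT and 7 of 9 KO animals. The exceptions were P22 (WT) with 20.3 CPM in V1 and 5.14 in S1, P9 (KO) with 9.64 and 1.90, and P24 (KO) with 9.81 and 7.09. In PV KO libraries 0 of 10 genes were called, against 7.56% of all genes (edgeR), with 4 at an unadjusted p under 0.05 and 1 called by DESeq2, and Spp1 differed by -1.20 (SE 0.43). Without P9, P22 and P24 the counts were 4 in WT and 3 in KO, and Plau was called in both. The fits between areas, in both classes, treat the V1 and S1 libraries of an animal as separate. With the animal as a block no area call of the 10 changed, but the shares over all genes moved in PV KO and in Camk2a.

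In Camk2a libraries Nell1, Plau, Metrnl, Fgf10 and Nell2 carried the area difference. In KO 5 of 8 genes were called where 13.1% of all genes were: Nell1, -1.28 (SE 0.12), and Plau, -0.90 (SE 0.14), lower in V1, and Metrnl, 0.68 (SE 0.16), Fgf10, 0.45 (SE 0.07), and Nell2, 0.23 (SE 0.07), higher in V1. Each of these directions held in 6 of 6 KO animals. In WT each held in 6 of 7 animals, and the exception was C24 each time, for Nell1 with 87.8 CPM in V1 and 41.9 CPM in S1. The WT estimates were -0.90 (SE 0.23) for Nell1 and -0.67 (SE 0.16) for Plau, yet 0 of 8 were called, against 0.359% of all genes (edgeR), with 4 at an unadjusted p under 0.05 and 4 called by DESeq2. Without the Batch 2 library of C24 the count was 5, as it was without both libraries of that animal.

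**Figure D5:**
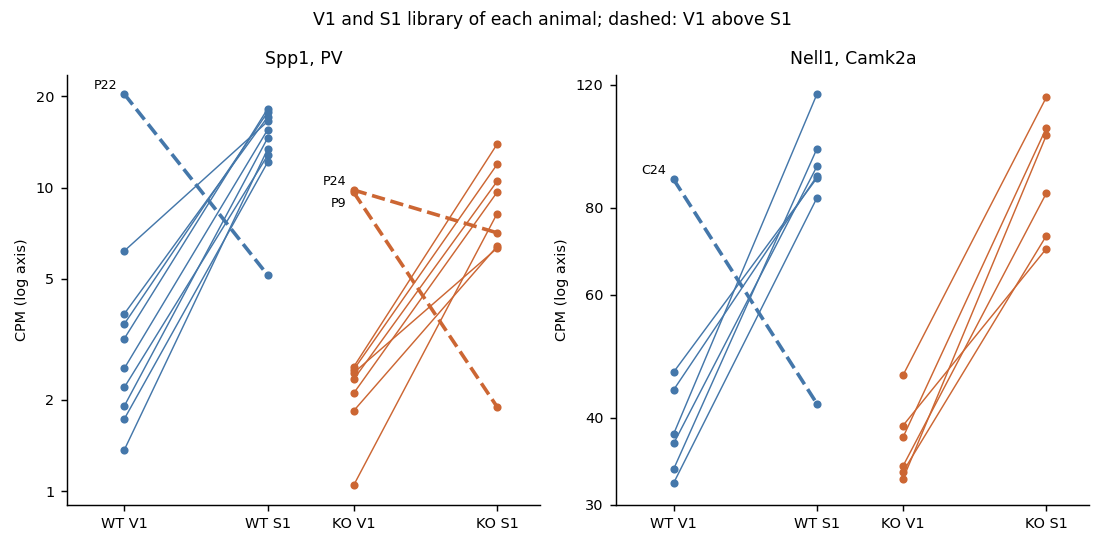
CPM (log axis) of Spp1 in PV animals and Nell1 in Camk2a animals, with 1 line joining the V1 and S1 library of each animal, WT in blue and Fmr1 KO in orange, dashed where V1 is above S1. Spp1 is higher in S1 except in P22 (WT), P9 and P24 (KO), and Nell1 except in C24 (WT).

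Sex was not used in choosing the genes, so it was tested, by sex label. None of the 10 was called between females and males in PV animals by edgeR, where 5 genes of the table were called (0.0291%). At an unadjusted p under 0.05 there were 807 genes, 3 of the 10 among them, with adjusted p of 0.959 for Nell2 (0.09 on the log2 scale, higher in females), 0.977 for Abi3bp (0.50) and 0.977 for Nell1 (0.17). In Camk2a animals 0 genes were called by edgeR, 506 had an unadjusted p under 0.05, and none of these was among the 10. Labels differed from Y-linked reads in P11 of PV and in C16 and C23 of Camk2a. Of the Camk2a animals with both areas, which this test used, only 2 WT and 2 KO were labelled male. Y-linked genes were not called either, so this test by label cannot show that sex differences are absent in Camk2a. With sex from Y-linked reads none of the 10 was called in either class. DESeq2 called 13 genes in PV and 3 in Camk2a, 0 of the 10 among them.

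Receptors, inhibitors and relatives of the 10 factors were read from 8 lists of 67 genes, of which 54 were in the table. The lists were chosen with earlier results of these data known. In PV animals (summed), where 1.36% of all genes were called and 1.05% called lower, most did not pass the test. Of 9 osteopontin receptor genes tested 1 fell and 0 rose: Itgb3, an integrin subunit, by 0.31 on the log2 scale (adjusted p = 0.0251, edgeR). Of 15 genes of the FGF10 list (receptors, related ligands and FGF targets) 1 fell: Fgfr1, by 0.19 (adjusted p = 0.0274, edgeR), whereas the FGF10 receptor Fgfr2 had an estimate of 0.02 (SE 0.05). Of the lists of plasminogen activation (5 tested), PEDF receptors (5), NELL receptors (5), other CCN genes (3), other CAP genes (5) and meteorin with KIT (3), 0 genes passed. List medians lay between -0.2 and 0.025 on the log2 scale. The call of Fgfr1 ended without P9, P22 and P24 (adjusted p = 0.081, edgeR) and without any 1 of P5, P6, P21, P22, P26 or P27, and that of Itgb3 without any 1 of P2, P9 or P10.

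In Camk2a animals (summed), where 4.11% of all genes were called, Serpine2 of the plasminogen activation list, a secreted inhibitor of thrombin and urokinase, fell by 0.48 (adjusted p = 0.00991, edgeR) and kept its call in all 8 alternative settings and all 13 fits without 1 animal. Of 10 osteopontin receptor genes 2 rose and 0 fell, the integrin subunits Itga4, by 0.52 (adjusted p = 0.0282), and Itgb8, by 0.42 (adjusted p = 0.019, edgeR). Of 3 other CCN genes 1 rose, Ccn3, by 0.41 (adjusted p = 0.0159, edgeR), while Ccn4 was lower. No gene passed among 5 PEDF receptor, 5 NELL receptor, 15 FGF10, 3 CAP and 3 meteorin and KIT genes tested. Without C3, C18 and C19 the calls of Itgb8 (adjusted p = 0.0518), Itga4 (0.077) and Ccn3 (0.0986, edgeR) ended, with estimates of 0.48, 0.59 and 0.34. With the animal as a block those of Itga4 (0.159) and Ccn3 (0.136) ended (limma). Leaving out 1 animal ended the call of Itgb8 for C7, C15 or C16 and that of Itga4 for C4, C5, C7, C15 or C16.

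Serpine2 was also the 1 listed gene whose genotype effect differed between the classes, by 0.53 (SE 0.11, adjusted p = 0.0134, edgeR), with an estimate in PV of 0.05 (SE 0.07). In single Camk2a areas it fell by 0.46 in V1 (adjusted p = 0.0414, edgeR) and by 0.56 in S1 (adjusted p = 0.00203, edgeR).

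For each gene the 3 genes most similar in log2 CPM across the libraries of the class with its higher mean were found by Pearson's r. The mean of each group was subtracted first, so mean differences between the labelled genotypes and areas do not enter r. The values are a description over libraries that share animals, groups and depth. In Camk2a (29 libraries) Metrnl was most like Cdkn1a (r = 0.924), Btg3 (0.861) and Baz1a (0.859). Fgf10 was most like Errfi1 (0.86), Nell1 like Cadps2 (0.836), Nell2 like Slc8a2 (0.82), Abi3bp like Hpcal1 (0.772) and Crispld1 like Slc39a10 (0.754). In PV (40 libraries) Spp1 was most like Them6 (0.868), Plau like Cenpa (0.785), Serpinf1 like Nos1 (0.764) and Ccn4 like Zfp609 (0.615). Without P9, P22, P24 and C24 the values of Spp1 with Them6 (0.581) and of Nell1 with Cadps2 (0.548) were lower, and those of Serpinf1 with Nos1 (0.779) and Metrnl with Cdkn1a (0.873) were near the first ones. Among the 10 themselves, also with group means subtracted, Plau and Fgf10 gave r = 0.584 over PV libraries and r = -0.744 over Camk2a libraries. Nell1 and Nell2 gave -0.01 over Camk2a libraries and 0.742 without C24.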

How the data were processed

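Estimated counts per gene and library were deposited by the authors in 1 table; the submitters' processing notes name STAR, Salmon, limma and the build mm10, without versions or options. Of the deposited values 71.1% were not whole, so estimated counts were rounded. All table columns belonged to listed samples. CPM and log2 values were computed here after TMM scaling. Tests used edgeR 4.0.16 in R 4.3.3 (filterByExpr, robust quasi-likelihood fit, sex as a term, Benjamini-Hochberg adjustment over all genes, calls at adjusted p under 0.05), after checks on simulated data. For genotype and sex the V1 and S1 libraries of an animal were summed. The labels' animal codes pair V1 with S1; a block on the animal was an alternative (limma 3.58.1), as were DESeq2 1.42.0, RLE scaling, no filter, other sex terms and leaving animals out. The 10 genes and the lists of receptors, relatives and markers were chosen with earlier results of these data known. All 10 genes are named; listed genes are named where called, except 1 result that is not reported here. Similar genes were ranked by r of log2 CPM, with the mean of each group subtracted, among genes with a mean CPM of at least 1. Figures used matplotlib 3.10.9. Libraries held 27.64 to 49.11 M estimated counts. Intervals over animals cover the spread between these animals only.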

Additional observations from a re-analysis of the deposited data

Results flagged for a closer look

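Libraries were checked by Dixon's test on CPM, which sets the gap to the nearest value against the range of the group. Its rate of about 5% holds for independent, normal values. The 80 combinations of gene and group share libraries, so 5% is not an exact background. In 16 of the 80 combinations 1 library stood far from the others of its group. In the P22 libraries these were Spp1 (20.3 CPM in PV WT V1, with the next at 6.18, and 5.14 CPM in PV WT S1, with the next at 12.1), Serpinf1 (8.72 CPM in PV WT S1) and Crispld1 (3.84 CPM in PV WT V1). P20 had 152 CPM of Nell2 in PV WT S1. In the C24 libraries they were Nell1 (87.8 CPM in Camk2a WT V1 and 41.9 CPM in Camk2a WT S1) and, in Camk2a WT S1, Nell2 (1189 CPM), Abi3bp (22.9 CPM), Fgf10 (11.5 CPM) and Metrnl (16.4 CPM). In Camk2a KO S1, C3 had 0.554 CPM of Spp1 and 0.277 CPM of Serpinf1, C5 had 8.35 CPM of Fgf10 and C7 had 4.84 CPM of Metrnl. In Camk2a KO V1, C7 had 4.79 CPM of Plau.

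By an interaction term in edgeR the genotype effect differed between the classes (PV minus Camk2a, log2 scale) by 1.20 for Ccn4, -0.72 for Fgf10, -0.59 for Plau and 0.53 for Serpine2.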

How the results depend on the processing

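Each comparison was recomputed with DESeq2, RLE scaling, no filter on low counts, no sex term, sex taken from Y-linked reads, animals left out and, where animals pair the areas, a block on the animal. No called value changed sign. The cause of the changes was not tested.

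Counts of the 10 genes called moved as follows. For genotype in PV (8 genes, areas summed) the count was 3 without P9, P22 and P24, and the call of Metrnl also ended with no filter on low counts and with no sex term. In PV S1 Metrnl, not called, was called with RLE scaling, DESeq2 and sex from Y-linked reads. Without P9, P22 and P24 the Fgf10 call in PV S1 ended and Spp1 was called. In PV V1 (2 genes) the count was 4 with DESeq2. In Camk2a V1 (2 genes) it was 4 with DESeq2, 4 without a sex term and 1 without C3, C18 and C19. For V1 minus S1 in PV WT (2 genes) it was 4 without P9, P22 and P24, and in PV KO (0 genes) 1 with DESeq2 and 3 without those animals. For V1 minus S1 in Camk2a WT (0 genes) it was 4 with DESeq2, 2 without a sex term, 2 with sex from Y-linked reads and 5 without the Batch 2 library of C24. Without both libraries of C24, an alternative chosen after seeing the data, it was also 5. Leaving out single animals or libraries gave 4 to 8 genes in PV summed, 1 to 3 in PV V1, 2 to 4 in PV S1, 3 to 4 in Camk2a summed, 0 to 3 in Camk2a V1 and 1 to 3 in Camk2a S1. Spp1 in Camk2a (-1.31, not called) was 1.12 without C3, C18 and C19.

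With the animal as a replicate block the count was 7 in PV summed (the call of Spp1 ended), 4 in Camk2a summed, 2 for V1 minus S1 in PV WT, 0 in PV KO, 0 in Camk2a WT and 5 in Camk2a KO, and 0 for the genotype effect by area in both classes. The block changed no other call of the 10 genes.

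Counts over all genes moved more. In PV summed 234 genes were called, 476 with DESeq2 and 81 without P9, P22 and P24. In Camk2a summed 688 were called, 1743 with DESeq2, 1481 with the block, 1347 without C24 and 131 without C3, C18 and C19. In PV V1 31 were called, 113 with DESeq2 and 48 with sex from Y-linked reads, and in PV S1 122, with 308 and, without P9, P22 and P24, 81. In Camk2a V1 222 were called, 876 with DESeq2 and 15 without C3, C18 and C19, and in Camk2a S1 641, 1454 with DESeq2, 990 without a sex term, 299 without C3, C18 and C19 and 1634 without the Batch 2 library. For V1 minus S1, PV WT had 3291 and 5060 without P9, P22 and P24. PV KO had 1218, 2047 with DESeq2, 0 with the block and 3479 without those animals. Camk2a WT had 56, 1345 with DESeq2, 7 with the block, 385 without a sex term, 310 with sex from Y-linked reads, 0 without C3, C18 and C19 and 2727 without the Batch 2 library, and Camk2a KO had 2058 and 3276 with the block. The genotype effect by class had 146, 268 with DESeq2, 268 without C24, 92 without C3, C18 and C19 and 74 without P9, P22 and P24. Female minus male had 5 in PV, 14 with sex from Y-linked reads, and 0 in Camk2a, 8 with sex from Y-linked reads. Serpinf1 and Spp1 in Camk2a libraries, at as few as 0 or 1 counts, are limited by depth.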
